A study of Mus musculus with 8 samples.

Results

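Vmn2r20 to Vmn2r27 are 8 neighbouring genes of the type 2 vomeronasal receptor (V2R) family on mouse chromosome 6. They were taken by name, as the rows called Vmn2r and a whole number from 20 to 27, which gave 8 of the 124 V2R genes listed and of the 27532 genes in the table. The run was chosen by the difference between its Tex15HET and Tex15KO values in these same libraries, so the genotype values below are a description and support nothing beyond themselves. RNA from the vomeronasal organ of 8 adult mice was sequenced in bulk. The 4 Tex15HET animals were heterozygous for a Tex15 mutation, with 1 male aged 11.4 weeks and 3 females aged 14.6, 11.9 and 11.9 weeks. The 4 Tex15KO animals were Tex15 knockouts, with 1 female aged 11.9 weeks and 3 males aged 11.9, 11.9 and 12.1 weeks. Both groups thus carry a Tex15 mutation on at least one copy, no wild-type animal was analysed here, and the labels do not say which cells lost the gene or whether animals were littermates. Replicate numbers follow the library names, and the libraries are taken as separate animals from their animal numbers.

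V2Rs are G-protein-coupled receptors with a large extracellular ligand-binding domain. They are carried by the basal sensory neurons of the vomeronasal organ, which signal through the G protein subunit Gnao1, and many of them detect peptide and protein pheromones. A basal neuron is known to carry one V2R of the large A, B or D groups together with a broadly used co-receptor of group C, here Vmn2r1 to Vmn2r7. Tex15 is best known from the male germ line, where it acts with the piRNA machinery to direct DNA methylation of transposons.

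The 8 genes follow each other in the order of their numbers over chr6:123373513-124231856 (GRCm38), with no V2R gene of another number between them. Vmn2r20, Vmn2r21, Vmn2r22, Vmn2r25 and Vmn2r27 are read from the minus strand and Vmn2r23, Vmn2r24 and Vmn2r26 from the plus strand. Vmn2r24 and Vmn2r25 are read towards each other and their ends overlap by 3267 bases. In GENCODE M21 all 8 are protein coding. The sequence just upstream of their coding starts is shown first because genes that rose and genes that did not could be set side by side there. Promoters of 300 bases (250 before and 50 after the RefSeq gene start, GRCm38.p6), which for these genes is the start codon, were in the RefSeq table for 7 members, and Vmn2r21 had no entry. The longest run of letters shared by the 7 promoters was 15 bases long, AACAATGCTTTATAA, searched on both strands. It was found in 8 of all 32851 promoters of that length (0.0244%) and in 8 of 117 V2R promoters (6.84%), the 8 being the 7 members and Vmn2r19, the next V2R gene on chromosome 6. As the letters were taken from these promoters, their presence there is no finding. The 30 bases around the shared run, in capitals, are given 5′ to 3′ on each gene's own strand, and those around it in Vmn2r20, Vmn2r22, Vmn2r23 and Vmn2r27 belong to genes that rose.
Vmn2r19 (chr6:123308190-123308219, plus strand): caggacaaAACAATGCTTTATAAacttgat
Vmn2r20 (chr6:123418182-123418211, minus strand): caggacaaAACAATGCTTTATAAcctcgat
Vmn2r22 (chr6:123650756-123650785, minus strand): caggaccaAACAATGCTTTATAAcctcgat
Vmn2r23 (chr6:123702670-123702699, plus strand): caggacaaAACAATGCTTTATAAacttgac
Vmn2r24 (chr6:123778822-123778851, plus strand): cagaagaaAACAATGCTTTATAAtctcatc
Vmn2r25 (chr6:123853300-123853329, minus strand): caggacacAACAATGCTTTATAAccttgat
Vmn2r26 (chr6:124024608-124024637, plus strand): caggacacAACAATGCTTTATAAccttgat
Vmn2r27 (chr6:124231894-124231923, minus strand): caggacaaAACAATGCTTTATAAatttgat
The shared run ended between 116 and 128 bases before the start codon in these 8 genes. A match is a description of letters and not a binding site.

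The wider upstream stretch, 250 to 101 bases before the start codon, is printed for the 4 members in which it ends before the first annotated transcript base, 3 that rose and Vmn2r24, which did not. The coordinates are GRCm38, and capitals mark the same shared run.
Vmn2r20 (chr6:123418162-123418311, minus strand): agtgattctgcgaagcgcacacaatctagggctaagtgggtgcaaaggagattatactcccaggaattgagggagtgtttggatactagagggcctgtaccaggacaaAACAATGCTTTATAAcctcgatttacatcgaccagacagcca
Vmn2r22 (chr6:123650736-123650885, minus strand): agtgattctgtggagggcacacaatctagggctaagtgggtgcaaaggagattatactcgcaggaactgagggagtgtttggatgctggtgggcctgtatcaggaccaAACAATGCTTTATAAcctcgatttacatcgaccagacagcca
Vmn2r27 (chr6:124231885-124232034, minus strand): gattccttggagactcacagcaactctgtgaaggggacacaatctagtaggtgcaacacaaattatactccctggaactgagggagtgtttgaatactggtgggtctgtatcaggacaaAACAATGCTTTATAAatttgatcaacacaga
Vmn2r24 (chr6:123778721-123778870, plus strand): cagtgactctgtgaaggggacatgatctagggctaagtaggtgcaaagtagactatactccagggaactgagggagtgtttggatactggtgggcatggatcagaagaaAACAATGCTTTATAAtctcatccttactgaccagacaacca
Over these 150 bases the 6 pairs of members that rose were 81.1% to 93.3% identical, with a median of 86.1%. The 12 pairs of one member that rose and one that did not were 82.6% to 91.3% identical, with a median of 86.2%. Vmn2r25 and Vmn2r26 were 99.3% identical to each other.

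The coding sequences fell into closer and looser relatives. Vmn2r20 and Vmn2r21 matched at 99.5% of aligned coding bases, Vmn2r20 and Vmn2r22 at 97.7%, and Vmn2r21 and Vmn2r22 at 98.2%. Vmn2r25 and Vmn2r26 formed a second close pair at 97.3%. Vmn2r23 and Vmn2r24, which lie side by side, were each other's nearest member at 89.8%. Vmn2r27 was the most distant, between 85.0% and 86.1% from each of the other 7. Among 112 V2R genes outside the run with a coding sequence, Vmn2r19 was the nearest to every member, at 85.2% to 89.5%, against a median of 63.5% to 64.2% over those genes.

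**Figure D1:**
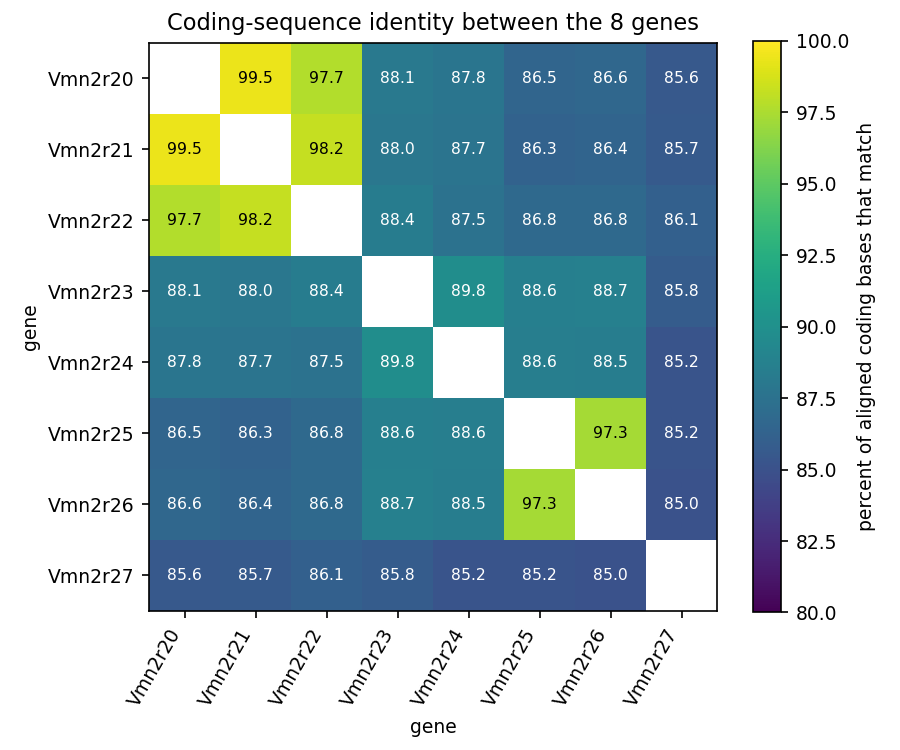
Percent of aligned coding bases that match, for each pair of the 8 genes, from GENCODE M21. Vmn2r20, Vmn2r21 and Vmn2r22 form one block at 97.7% or more and Vmn2r25 and Vmn2r26 another at 97.3%, and the other pairs lie between 85.0% and 89.8%.

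Sequence this close limits how reads from the coding part could be assigned. Of the 100-base windows of the coding sequence, 33.5% in Vmn2r20, 3.09% in Vmn2r21 and 49.4% in Vmn2r22 occurred in no other annotated gene on either strand. The share was 56.6% in Vmn2r25 and 79.4% in Vmn2r26, and 99.3%, 99.4% and 99.03% in Vmn2r23, Vmn2r24 and Vmn2r27. Over whole M21 transcripts the unique share was 89.2% in Vmn2r20, 3.09% in Vmn2r21, whose model there holds little beyond the coding sequence, and 82.1% in Vmn2r22. It was 99.9% in Vmn2r23, 82.4% in Vmn2r24, 75.4% in Vmn2r25, 93.4% in Vmn2r26 and 99.5% in Vmn2r27, and 17.3% of the transcript windows of Vmn2r24 were shared with Vmn2r25. Many of the shared coding windows of Vmn2r25, 32.2% of its coding windows, were shared with Vmn2r24, which overlaps it on the other strand. The deposited values gave whole reads once multiplied by a gene length and a factor for each library, and the lengths behind the values differed from the M21 exon lengths in 7 of 8 members, for example 14509 bases against 2562 in Vmn2r21 and 10726 against 4486 in Vmn2r27. The windows therefore do not cover the full models behind the values. How reads with several matches were counted is not given in the sources used here. Gene pairs with the same annotated transcripts had read numbers that ranged from almost equal to unequal. Over 20 such pairs of at least 300 bases and a mean of 100 reads, 10 of them within one family of 5 genes, the smaller read number was a median 95.7% of the larger. It was over 90% in 11 pairs and 30.5% in the lowest. The deposited values list no gene at 0 in every library, so a copy given no reads would not appear among these pairs. Values of Vmn2r20, Vmn2r21 and Vmn2r22 may hold some of the same reads, which was not tested.

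Tex15 itself, the targeted gene, was lower in every knockout library. It stood at 2.72, 2.29, 2.81 and 2.27 TPM (the deposited unit, scaled by gene length and library depth) in Tex15HET replicates 1 to 4 and at 0.870, 1.23, 1.12 and 1.14 TPM in Tex15KO replicates 1 to 4. Its log2 fold change was −1.22 (SE 0.38). It was not called by the limma test across all genes (adjusted p = 0.794), and limma-voom on recovered reads did call it (adjusted p = 0.0164), the 1 of 18 other settings that did. Heterozygous replicate 1 stood apart in Omp, a marker of mature sensory neurons, at 66.6 TPM against 627 to 943 TPM in the other 3 heterozygotes and 571 to 749 TPM in the knockouts. It did not stand apart in Gnao1, at 17.3 TPM within a heterozygous range of 11.5 to 30.7 TPM. Nor did it in summed V2R TPM, at 852 within 508 to 1421 TPM. The 8 libraries held between 17839118 and 26389508 recovered reads. In bulk tissue, a change in the number of neurons that carry a receptor and a change in its RNA per neuron cannot be told apart.

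The 3 near-identical genes at the low end of the run had the highest levels and rose together. Vmn2r20 (ENSMUSG00000094145, chr6:123373513-123418116) stood at 7.998, 4.49, 15.9 and 9.54 TPM in Tex15HET replicates 1 to 4 and at 44.8, 79.9, 78.9 and 85.3 TPM in Tex15KO replicates 1 to 4. The lowest knockout value was thus above the highest heterozygous one, and knockout replicate 1 was well below the other 3 knockouts. Vmn2r21 (ENSMUSG00000093820, chr6:123492508-123533406) stood close to it in each library, with 7.31, 4.45, 13.6 and 8.42 TPM against 44.9, 81.0, 81.1 and 86.3 TPM. For Vmn2r22 (ENSMUSG00000095486, chr6:123609758-123650725) the values were 3.71, 2.33, 6.64 and 4.71 TPM against 25.7, 46.9, 46.3 and 48.8 TPM. The groups did not overlap in any of the 3. Their means went from 9.48 ± 4.77 to 72.2 ± 18.5 TPM, from 8.44 ± 3.81 to 73.3 ± 19.1 TPM and from 4.35 ± 1.81 to 41.9 ± 10.9 TPM (SD, n = 4). Those are ratios of means of 7.62, 8.69 and 9.64.

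Vmn2r23 and Vmn2r27 rose from much lower starting levels. Vmn2r23 (ENSMUSG00000091620, chr6:123702670-123747657) stood at 0.756, 0.502, 1.05 and 0.874 TPM in the heterozygous and at 6.40, 11.1, 10.07 and 8.65 TPM in the knockout libraries. In reads that was 156 to 268 against 1341 to 2891. Vmn2r27 (ENSMUSG00000072778, chr6:124189756-124231856), the last gene of the run, was near the floor in the heterozygotes, at 0.268, 0.0584, 0.274 and 0.0890 TPM, from 47, 9, 27 and 11 reads. In the knockouts it stood at 8.47, 10.11, 9.32 and 7.93 TPM, from 879, 1299, 1062 and 907 reads. Here knockout replicate 1 lay within the other 3. The ratio of means was 11.4 for Vmn2r23 and 52.0 for Vmn2r27, the highest in the run, against a heterozygous level made of few reads.

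The 3 genes between them did not follow in TPM. Vmn2r24 (ENSMUSG00000072780, chr6:123778879-123824912), which starts 31221 bases beyond the end of Vmn2r23, stood at 0.655, 0.389, 1.05 and 0.661 TPM and then at 0.522, 0.621, 0.817 and 0.706 TPM. Its knockout range lay inside its heterozygous range, with means of 0.689 ± 0.273 and 0.667 ± 0.126 TPM (SD, n = 4). Vmn2r25 (ENSMUSG00000094672, chr6:123821646-123853463) was lower in every knockout library, at 0.463, 0.319, 0.866 and 0.398 TPM against 0.126, 0.195, 0.167 and 0.202 TPM, from 49 to 85 reads against 13 to 25. For Vmn2r26 (ENSMUSG00000096630, chr6:124024568-124065806) the values overlapped, at 0.330, 0.325, 0.502 and 0.394 TPM against 0.299, 0.560, 0.464 and 0.593 TPM. Both Vmn2r25 and Vmn2r26 had means below 0.5 TPM over the 8 libraries and were not tested. Vmn2r26 is the receptor also known as V2r1b, whose neurons have been used to study responses to peptide ligands.

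**Figure D2:**
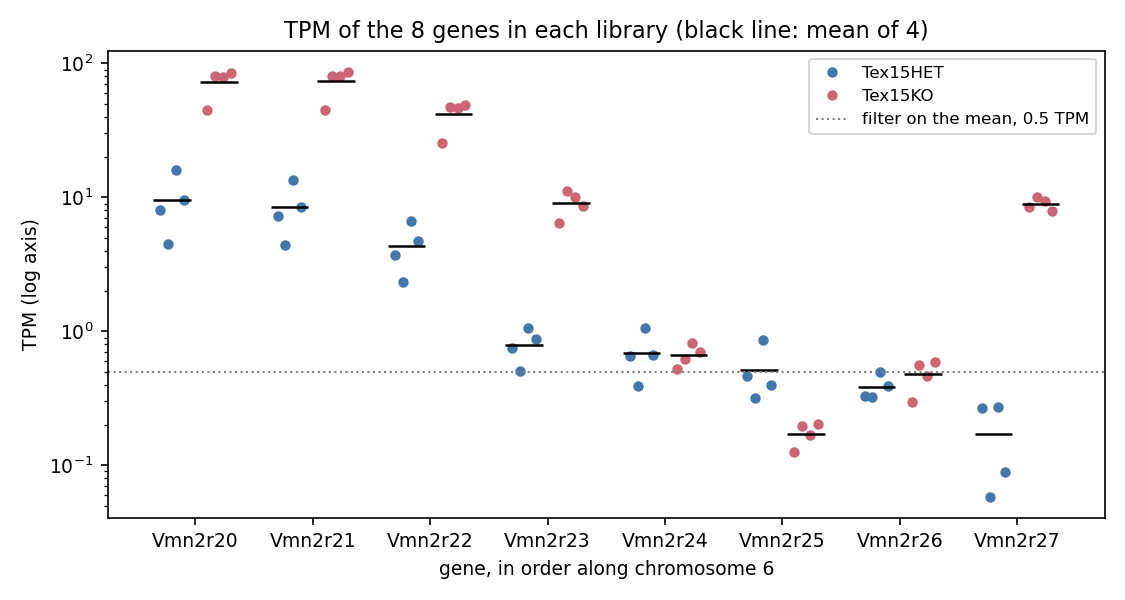
TPM of the 8 genes on a log axis, with a point for each of 4 Tex15HET and 4 Tex15KO libraries, a black line for each mean and a dotted line at the filter of 0.5 TPM. Vmn2r20 to Vmn2r23 and Vmn2r27 show 2 separate groups of points, Vmn2r24 and Vmn2r26 overlap, and Vmn2r25 lies lower in the knockouts.

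Of the 8 members, 6 had a mean of at least 0.5 TPM and entered limma fits on log2(TPM + 0.5) over 20305 genes with terms for genotype and sex. Of these 6, 5 were called at an adjusted p under 0.05, each higher in Tex15KO. Over all genes tested 0.586% were called and 0.212% were called higher, shares given for scale because this contrast chose the run. Relative to the median gene, the log2 fold changes were 2.58 (SE 0.41) for Vmn2r20, 2.72 (SE 0.40) for Vmn2r21, 2.79 (SE 0.40) for Vmn2r22, 2.54 (SE 0.40) for Vmn2r23 and 3.54 (SE 0.39) for Vmn2r27. The fold change of Vmn2r24 was −0.26 (SE 0.39). The added 0.5 TPM understates the change of low genes: for Vmn2r27 the log2 fold change was 4.73 with 0.1 TPM added, 2.85 with 1 TPM added and 5.50 by limma-voom on recovered reads. For Vmn2r23 the same 3 settings gave 3.001, 2.17 and 3.14. Every knockout library was above every heterozygous one in 5 of 8 members, against 0.777% of all genes listed, and below in 1 of 8, Vmn2r25, against 1.23%.

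The calls of 3 members depended on one library. Without heterozygous replicate 1, the one heterozygous male and the library low in Omp, 2 members were called. These were Vmn2r27, at a log2 fold change of 3.89, and Vmn2r22, at 2.54 and only just under the threshold. Vmn2r20, Vmn2r21 and Vmn2r23 were not called, at log2 fold changes of 2.34, 2.48 and 2.49. The part of that library's Omp level in this was not tested. In that fit knockout replicate 1 is the one knockout animal of the same sex as the heterozygotes. Within females the ratios of means were 4.49 for Vmn2r20, 5.09 for Vmn2r21, 5.63 for Vmn2r22, 7.91 for Vmn2r23 and 60.2 for Vmn2r27, from 3 heterozygotes and 1 knockout. Among males, with 1 heterozygote and 3 knockouts, they were 10.17, 11.3, 12.8, 13.2 and 34.1. Within the 6 animals whose label numbers start with 71, with 2 heterozygotes and 4 knockouts, they were 5.68, 6.67, 7.38, 9.41 and 49.3. The value of Vmn2r24 was 0.745 among females, 1.09 among males and 0.778 among those 6 animals.

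The run was not chosen by sex, but its sex term comes from the same libraries and fit as the genotype term, and sex was unbalanced between the genotypes. The male-minus-female difference of the 6 tested members lay between 0.11 and 0.37 on the log2 scale, with SEs of 0.39 to 0.41. With limma, 0 of 6 members were called by sex, and 0 of 6 had an unadjusted p under 0.05, the lowest being 0.357. Over all genes tested 0.0492% were called by sex, and 460 genes had an unadjusted p under 0.05. Each SE was larger than its estimate, so a sex difference of these sizes was not detectable.

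As a share of the family, the run went from a small to a large part of V2R RNA. It held 2.52%, 2.53%, 2.81% and 2.46% of the summed TPM of the 124 V2R genes in Tex15HET replicates 1 to 4 and 24.4%, 29.1%, 28.8% and 28.0% in Tex15KO replicates 1 to 4. The means were 2.58% ± 0.154 and 27.6% ± 2.16 (SD, n = 4). The share of Vmn2r24 was 0.0648% to 0.0769% in the heterozygous and 0.0784% to 0.104% in the knockout libraries, without overlap. That of Vmn2r26 went from 0.0442% ± 0.0133 to 0.0637% ± 0.00753, and that of Vmn2r25 from 0.0543% ± 0.0108 to 0.0232% ± 0.00143 (SD, n = 4). Where Vmn2r20, Vmn2r21 and Vmn2r22 were counted once, by their mean, a choice made after seeing the data, the run held 1.06% ± 0.0566 and 13.1% ± 1.014 (SD, n = 4).

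**Figure D3:**
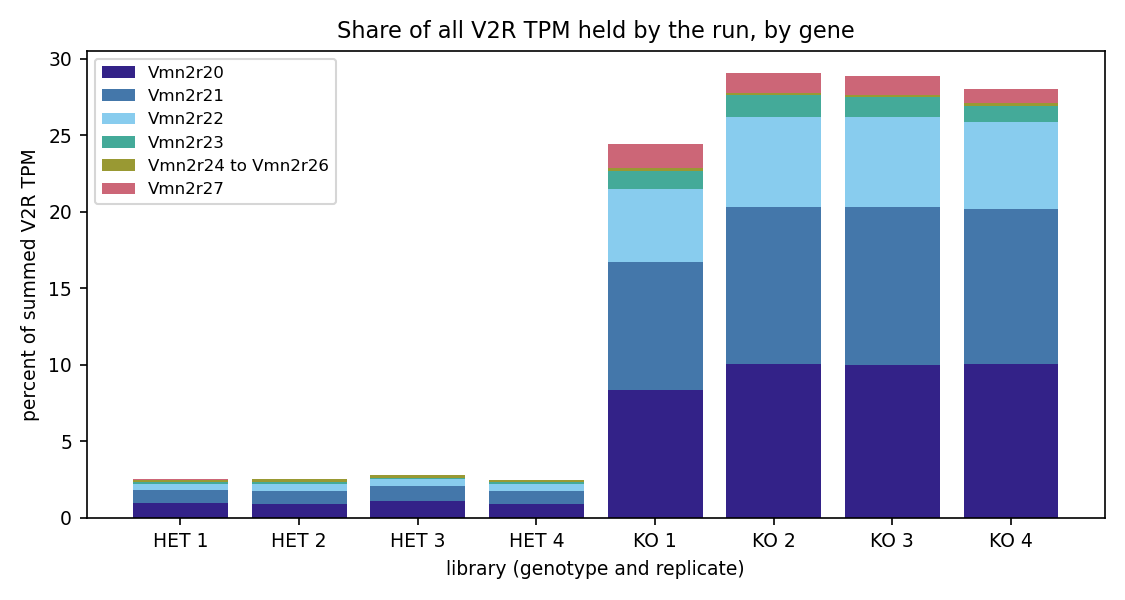
Percent of the summed V2R TPM held by each gene of the run in each library, as stacked bars from 0. The 4 Tex15HET bars reach 2.46% to 2.81% and the 4 Tex15KO bars 24.4% to 29.1%, with knockout replicate 1 the lowest knockout.

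The sum of the run did not overlap between the groups, while that of the V2R genes outside it did. The run summed to 24.8 ± 11.3 TPM in Tex15HET and 207 ± 50.6 TPM in Tex15KO, and the V2R genes outside it to 925 ± 368 and 536 ± 89.7 TPM (SD, n = 4). Of the 101 V2R genes outside the run that were tested, 1 was called higher and 37 were called lower, with a median log2 fold change of −1.57. Over all 20305 genes tested, 43 were called higher and 76 lower. Against the co-receptors Vmn2r1 to Vmn2r7, which summed to 168 ± 66.2 and 152 ± 24.97 TPM, the run stood at 0.147 ± 0.0112 and 1.34 ± 0.167 TPM per co-receptor TPM. Per TPM of Gnao1, the G protein subunit of basal neurons, it stood at 1.18 ± 0.111 and 10.45 ± 2.10 (SD, n = 4). Members other than Vmn2r26 varied less among the heterozygous libraries as a share of V2R TPM than in TPM. Over the 4 heterozygotes the SD of Vmn2r20 was 50.3% of its mean in TPM and 10.62% as a share of V2R TPM, and that of Vmn2r22 41.7% and 3.13%. For Vmn2r27 the spread stayed wide on both scales, at 66.5% and 57.3%, from 9 to 47 reads. Over the 4 knockouts the SD of Vmn2r27 was 10.7% of its mean in TPM and 21.4% as a share.

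Vmn2r20, Vmn2r21 and Vmn2r22 together made up 89.3% ± 1.46 of the run's TPM in Tex15HET and 90.3% ± 1.85 in Tex15KO (SD, n = 4). The ratio of Vmn2r20 to Vmn2r22 was 2.13 ± 0.202 and 1.73 ± 0.0249. Vmn2r27 went from 0.686% ± 0.399 to 4.57% ± 1.34 of the run. Its level per TPM of Vmn2r23 was between 0.102 and 0.354 in heterozygous and between 0.907 and 1.32 in knockout libraries.

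Ranks among the 124 V2R genes compare the members within each library. Vmn2r20 ranked 26 to 37 in the heterozygous and 2 to 3 in the knockout libraries, Vmn2r21 33 to 39 and 1 to 2, and Vmn2r22 53 to 59 and 4 to 5. Vmn2r23 moved from 98 to 105 up to 17 to 21, and Vmn2r27 from 115 to 122 up to 16 to 23. Vmn2r24 moved from 99 to 106 up to 67 to 73 and Vmn2r26 from 101 to 115 up to 78 to 82, although their TPM values overlapped between the groups. Vmn2r25 ranked 103 to 114 and 100 to 108. In the order of mean levels, per length, of the knockouts, Vmn2r21 and Vmn2r20 differed by less than the spread between animals, as did Vmn2r23 and Vmn2r27. Within a library, the ratio of Vmn2r20 to Vmn2r21 was above 1 in 4 of 4 heterozygotes, at 1.10 ± 0.0689, and below 1 in 4 of 4 knockouts, at 0.986 ± 0.0106 (SD, n = 4). In the heterozygotes the order of means ran from Vmn2r20 down to Vmn2r27 in the order of the genes. Vmn2r20 and Vmn2r21, and each neighbouring pair from Vmn2r23 to Vmn2r26, differed by less than the spread between animals. Within a library, Vmn2r24 was above Vmn2r25 in 4 of 4 heterozygotes. The order of Vmn2r23 and Vmn2r24, and of Vmn2r25 and Vmn2r26, was not the same in every heterozygote.

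**Figure D4:**
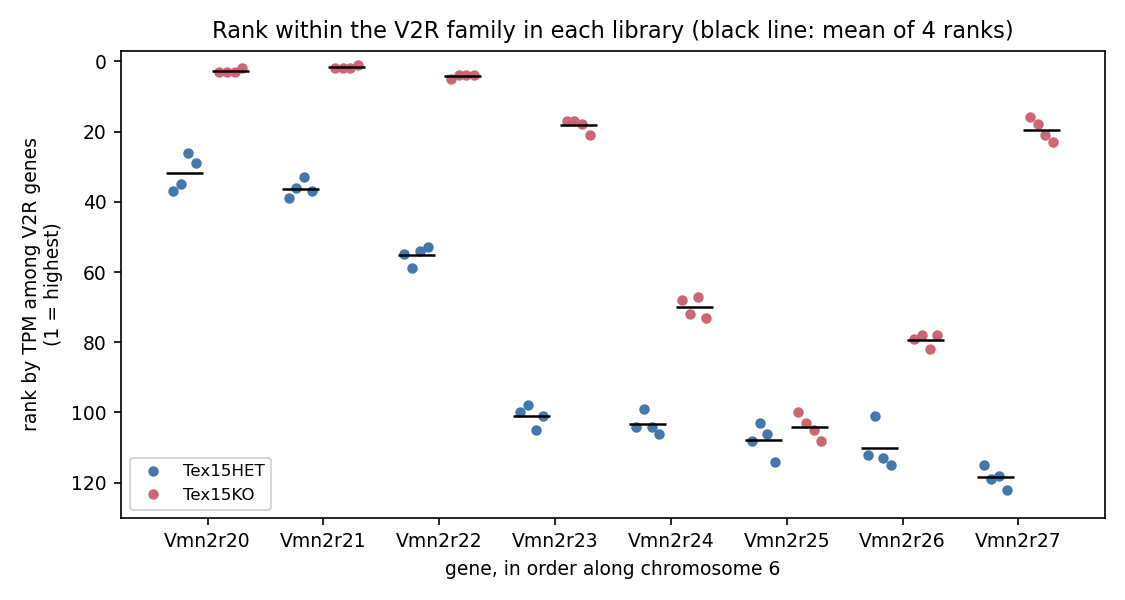
Rank of each gene by TPM among 124 V2R genes, 1 being the highest, with a point for each library and a black line for the mean of 4 ranks. Vmn2r20, Vmn2r21 and Vmn2r22 take ranks 1 to 5 in the knockouts, and Vmn2r25 keeps overlapping ranks of 100 to 114 in both groups.

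Genes on either side of the run were not called. In the 1 Mb below it 0 of 21 tested genes were called and in the 1 Mb above it 0 of 48, with 1 gene on each side at an unadjusted p under 0.05 and median log2 fold changes of −0.016 and 0.037. Over all genes tested 0.586% were called, so windows of this size would be expected to hold few calls or none. The changes ranged from −0.47 to 0.99 below the run and from −0.46 to 1.10 above it, the highest being those of Clec4a3 and Gm23851, named after their values were seen. Below the run lie lectin receptor genes of myeloid cells: Clec4e had a log2 fold change of 0.05 (SE 0.46), Clec4d of −0.29 (SE 0.46) and Clec4n of 0.11 (SE 0.46). Above it, the pseudogene Gm6308 had 0.48 (SE 0.51), the macrophage scavenger receptor Cd163 0.27 (SE 0.47) and the peroxisomal import receptor Pex5 0.14 (SE 0.41). Vmn2r19, the V2R gene next to Vmn2r20, was at 0 to 0.0459 TPM in the heterozygous and 0 to 0.0264 TPM in the knockout libraries, and was not tested. The next lower number, Vmn2r18, lies on chromosome 5 (151561190 to 151606021) and was called lower. It stood at 3.38 ± 1.09 TPM in Tex15HET and 0.610 ± 0.257 TPM in Tex15KO (SD, n = 4), a log2 difference of −2.08 (SE 0.42). The adjusted p by limma was 0.0382, it was 0.116 when heterozygous replicate 1 was left out, and 13 of 18 other settings called the gene.

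Inside the span, 2 of 3 tested entries that are not members were called, both higher, against 0.212% called higher over all genes tested. They are the small nucleolar RNA entries Gm25891 and Gm25065, which lie in Vmn2r21 and Vmn2r22 on the opposite strand, have the same 132-base sequence, and had equal read numbers in 7 of 8 libraries. Gm25891 had 6, 6, 9 and 5 reads in the heterozygous and 15, 63, 56 and 77 reads in the knockout libraries. Their log2 fold changes were 2.37 and 2.36 with limma adjusted p-values of 0.00816 and 0.00829. Limma-voom on recovered reads called neither, with adjusted p-values of 0.105 and 0.109, and neither was called without heterozygous replicate 1. Gm22724, another such entry in Vmn2r23, was not called, at 0.171 and 1.64 TPM on average. Whether these reads come from the host receptor genes was not tested. The other 3 of 6 listed entries inside the span were below the filter and not tested. The pseudogene Vmn2r-ps34 stood at 0 to 0.0895 TPM in the heterozygous and 0.113 to 0.387 TPM in the knockout libraries. Vmn2r-ps33 was at 0 in the heterozygotes and at 0 to 0.831 TPM in the knockouts. A330044P14Rik overlapped, at 0.0971 to 0.183 and 0.144 to 0.289 TPM.

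**Figure D5:**
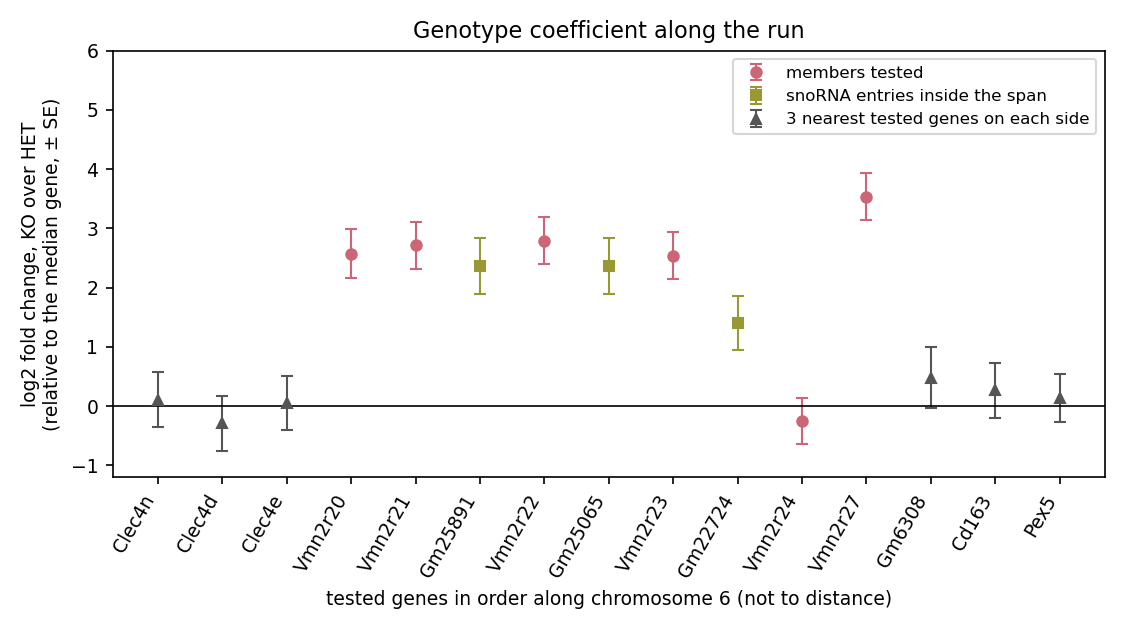
Log2 fold change of knockout over heterozygous libraries relative to the median gene, with its SE, for the tested genes in order along chromosome 6 (order only, not distance). The 5 called members and 2 called snoRNA entries lie above 2, the snoRNA entry Gm22724 at 1.40, and Vmn2r24 and the 3 nearest tested genes on each side lie between −0.29 and 0.48.

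Few other genes of the pathway were called. Of 12 tested genes of V2R signal transduction 0 were called, with a median log2 fold change of −0.03, and 0 of 7 co-receptors were, with a median of −0.54. Of 10 genes of the H2-Mv list, the class Ib major histocompatibility genes of some V2R neurons and B2m, 1 was called lower, H2-M9, by −2.44 on the log2 scale (SE 0.48). The median of that list was −0.87, with 0 of 10 genes above the median gene and 2 of 10, H2-M9 and H2-M11, lower in every knockout than in every heterozygote. Its adjusted p by limma was 0.0275, it was 0.751 when heterozygous replicate 1 was left out, and 14 of 18 other settings called it. Over all genes tested 0.586% were called, and the median is 0 by construction. Among 12 lists of cell type markers, 0 of 39 distinct tested genes were called by limma, with 1 at an unadjusted p under 0.05, and over all 15 lists 1 of 63 was called by limma, 5 had an unadjusted p under 0.05, and limma-voom called 1. Markers of basal vomeronasal neurons summed to 1573 to 4150 TPM in Tex15HET and 1692 to 3183 TPM in Tex15KO, most of it from B2m, a gene of nearly every cell. The other 5 (Gnao1, Tfap2e, Robo2, Vmn2r1 and Vmn2r2) were above 0 in every library and summed to 51.0 to 146 and 74.4 to 108 TPM. Those of apical neurons summed to 141 to 387 and 256 to 365 TPM. Markers of main olfactory neurons, a cell type of the neighbouring epithelium, summed to 27.8 to 72.1 and 23.1 to 29.1 TPM, with 0 of 4 genes above the median gene. In the other direction, 5 of 5 progenitor, 3 of 3 glia, 3 of 3 blood, 2 of 2 endothelium and 2 of 2 cartilage genes were above the median gene, with list medians of 0.42, 0.29, 0.40, 0.40 and 0.24. Blood genes summed to 2310 to 12291 and 2889 to 8230 TPM and gland genes to 30581 to 102321 and 31262 to 87023 TPM. The part of tissue makeup in the run's values was not tested.

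The 5 tested genes outside the run whose log2(TPM + 0.5) followed the members' mean most closely over the 8 libraries were Vmn1r13 (Pearson r = 0.996), Vmn2r-ps123 (r = 0.986), Olfr78 (r = 0.984), Vmn2r127 (r = 0.982) and Cyp4f40 (r = 0.980). The members' values form 2 clusters by genotype, and all genes of a library share its depth and tissue makeup, so r here mostly follows the difference between those clusters. Vmn1r13, a type 1 vomeronasal receptor gene also on chromosome 6 (57203290 to 57214799), went from 1.89 ± 0.793 to 9.41 ± 1.63 TPM. Vmn2r127 (chromosome 17, 19141468 to 19176756), the V2R gene outside the run that was called higher, went from 1.13 ± 0.632 to 9.51 ± 3.30 TPM, and the odorant receptor gene Olfr78 (chromosome 7, 102738511 to 102759471) from 0.557 ± 0.214 to 12.8 ± 5.54 TPM (SD, n = 4).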

How the data were processed

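RNA of 8 vomeronasal organs was poly(A) selected and sequenced from directional libraries, per the labels' protocols. The authors deposited one table of TPM values per gene and library. Per the submitters' processing notes, Trim Galore 0.6.5, cutadapt 5.1, STAR 2.7.11b and deepTools 3.5.5 were used, with builds mm10 and GRCm38. The counting program, its strand setting and its annotation are not given in the sources used here. Values of 97.9% of genes were whole reads, within 0.02 reads, once a gene length was found (the GENCODE M21 exon length in 26048 of 27532 genes), and library totals are sums of these reads.

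In R 4.3.3, limma 3.58.1 (lmFit and eBayes with trend) was fitted to log2(TPM + 0.5) on genotype and sex for the 20305 genes that averaged 0.5 TPM or more, with Benjamini-Hochberg adjustment over all of them and calls at 0.05. Fold changes are relative to the median gene, which moved by 0.19 as deposited and by −0.01 after median-ratio scaling. The fit was also run on simulated data with independent noise for each gene, which does not cover shifts shared by a library. The outcome is not given here. p-values compare each coefficient with the spread between these animals, which limma moderates with the variances of all genes tested. Named genes besides the members are Tex15, Vmn2r18 and Vmn2r19, the 3 nearest tested genes on each side, called genes inside the span, the 5 most alike, and called genes of the lists. Gm22724, Vmn2r-ps33, Vmn2r-ps34, A330044P14Rik, H2-M11, Omp, Gnao1 and the other basal markers were named after their values were seen. Members and lists were chosen with earlier results of these data known. Identities are over bases aligned end to end, without gaps in the count. Other settings tried were the pseudocount, the filter, scaling, robust variance, terms of the fit, fewer animals, other share denominators, limma-voom on recovered reads and leaving out each library.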

Additional observations from a re-analysis of the deposited data

Results flagged for a closer look

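Knockout replicate 1, the one knockout female and the library with the fewest reads, stood apart from the other 3 knockouts in the low direction for several values of the run. Its Vmn2r20, Vmn2r21 and Vmn2r22 levels were 44.8, 44.9 and 25.7 TPM, against 78.9 to 85.3, 81.0 to 86.3 and 46.3 to 48.8 TPM in the others, and the run as a whole was at 131 against 227 to 238 TPM. As shares of V2R TPM the 3 genes stood at 8.34%, 8.35% and 4.78%, against at least 10.01%, 10.13% and 5.73%. Vmn2r26 held 0.0641% of V2R TPM in heterozygous replicate 2, against 0.0353% to 0.0387% in the other heterozygotes, from 71 reads. Each gap to the nearest other library was above Dixon's critical share of the range for 4 values. Over 36 groups of 4 values 8 had such a gap, where chance gives about 1 in 20, and the 3 near-identical genes and their sum are not separate cases.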

How the results depend on the processing

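Over 18 other settings the number of members called by genotype was 5 in 17, and between 2 and 5 when each library was left out. Over 15 settings 0 members were called by sex. The difference in the run's share of V2R TPM, 24.996 percentage points, was 31.6 without the co-receptors in the denominator, 22.05 with the Vmn2r-ps pseudogenes, 21.8 in females, 12.1 with Vmn2r20 to Vmn2r22 counted once, and 24.5 to 26.1 when each library was left out. The 2 called neighbours became 0 with no filter and with limma-voom, and 0 to 3 when each library was left out (0 without heterozygous replicate 1). The 1 called gene of the lists became 4 in the 6 animals whose label numbers start with 71, 0 with no filter, 2 with no sex term, 3 with robust variance, and 0 to 4 when each library was left out (0 without heterozygous replicate 1 or knockout replicate 2, 2 without knockout replicate 4, 3 without heterozygous replicate 4, 4 without heterozygous replicate 2). The cause of these changes was not tested. Of 129 values of single members under other settings none reversed, 3 lost their call, all without heterozygous replicate 1 (limma adjusted p of 0.0963 for Vmn2r20, 0.0516 for Vmn2r21 and 0.0832 for Vmn2r23), and Vmn2r25 moved from −0.56 to −1.10 with a pseudocount of 0.1. The log2 fold change of Vmn2r27, still called, spanned 2.85 (pseudocount 1) to 5.50 (limma-voom). With the replicate number as a block and no sex term, 5 members, 3 neighbours and 2 list genes were called. The replicate numbers share only a number: same-numbered libraries deviated together with correlations of −0.06 to 0.10, and others with −0.17 to 0.19. Read numbers of 13 to 102 limit Vmn2r25 and Vmn2r26.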
